A study of Mus musculus with 10 samples.

Results

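The unfolded protein and ATF4 response was described through 34 named genes in mouse granulosa cells, the somatic cells that surround the oocyte in an ovarian follicle. The genes were taken by symbol from the 35087 gene symbols of the tables, and they divide by role into 14 chaperones and folding enzymes, 7 genes of endoplasmic reticulum (ER) degradation, 9 sensors and factors and 4 genes of amino acid synthesis. Granulosa cells were cut by laser microdissection from ovaries of wild-type female C57B6/J mice aged 3 weeks, and their polyadenylated RNA was amplified and sequenced by GEO-seq, a protocol for small captured areas. The NAC group (4 libraries) came from mice given 150 mg/kg N-acetyl-l-cysteine, an antioxidant and source of cysteine, into the peritoneum on 3 consecutive days. The saline group (6 libraries) came from mice injected with normal saline on the same schedule. All ovaries were taken on day 4 after the start of injections, and the labels put all 10 libraries in batch 1. The labels do not tie a library to a mouse, so each p-value measures the spread between captured samples, which may be technical.

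The ER folds and joins disulfide bonds in proteins bound for the membrane or for secretion. When unfolded proteins build up there, the sensors IRE1, PERK and ATF6 signal to the nucleus. IRE1 splices Xbp1 mRNA, ATF6 is cut to release a transcription factor, and PERK phosphorylates eIF2 alpha, which slows translation in general and raises translation of ATF4. XBP1 and ATF6 induce chaperones and degradation factors, while ATF4 induces Ddit3, Trib3, Sesn2, Asns and the serine synthesis genes. Granulosa cells secrete hormones such as inhibin and anti-Müllerian hormone, which pass through the ER.

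Short promoter stretches are shown for members with the letters of known response elements of this pathway, because these elements are the textbook link between the sensors and the genes measured here. They come from RefSeq promoter windows of 250 bases before to 50 after the annotated start (GRCm38.p6), where 30 of the 34 members had an entry. Atf6, Derl1, Hyou1 and Manf had none. The capitals mark the element, and positions count from the RefSeq start. The gene spans given below are from another annotation, GENCODE, whose starts can differ. The Hspa5 and Asns stretches lie inside the GENCODE spans of these genes.
Hspa5, chr2:34772013-34772055, plus strand, -77 to -35: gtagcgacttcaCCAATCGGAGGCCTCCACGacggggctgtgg
Pdia6, chr12:17266479-17266521, plus strand, -110 to -68: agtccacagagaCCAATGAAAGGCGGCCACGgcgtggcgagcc
Creld2, chr15:88819508-88819550, plus strand, -138 to -96: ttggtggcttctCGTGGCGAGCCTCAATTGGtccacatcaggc
Derl3, chr10:75893230-75893272, plus strand, -168 to -126: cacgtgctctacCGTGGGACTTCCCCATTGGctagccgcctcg
Herpud1, chr8:94386305-94386399, plus strand, -124 to -30: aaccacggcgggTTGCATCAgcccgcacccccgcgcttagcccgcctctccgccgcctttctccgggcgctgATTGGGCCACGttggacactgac
Asns, chr6:7693213-7693244, minus strand, -35 to -4: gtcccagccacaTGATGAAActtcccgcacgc
The Hspa5, Pdia6, Creld2 and Derl3 stretches hold an ER stress response element (ERSE; CCAAT, 9 bases, CCACG), which Creld2 and Derl3 carry on the opposite strand. The Herpud1 stretch holds an ERSE-II (ATTGG, 1 base, CCACG) and, on the opposite strand, a C/EBP-ATF element (TGATG, 1 base, AA), and the Asns stretch holds a C/EBP-ATF element.

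ERSE letters, searched on both strands, were present in 9 of the 32 promoter entries of the members (28.1%), against 39 of all 32851 promoters (0.119%). These members were Calr, Canx, Creld2, Derl3, Dnajc3, Hsp90b1, Hspa5, Pdia6 and Syvn1. ERSE-II letters were in the Herpud1 entry (3.12% of entries, against 0.0365% of all promoters), and C/EBP-ATF letters in those of Asns, Herpud1 and Trib3 (9.38%, against 3.97%). The unfolded protein response element UPRE (TGACG followed by TGG) was found in none of the 32 entries, and in 0.676% of all promoters. Its last 5 letters are the CCACG of the ERSE read on the other strand. The 9 members with an ERSE had a median log2 fold, NAC over saline, of -0.20, with 7 negative, and the 20 tested members of the promoter table without it a median of -0.41, with 16 negative. The members were listed as genes of this response, so an excess of its elements over all promoters is no independent support. A match of letters is a description of the window and shows no binding in these cells.

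The libraries differed in depth. NAC 1 and NAC 4 held 1295412 and 1667181 estimated reads, NAC 2 held 509945, NAC 3 held 116461, and the saline libraries held 1340324 to 2488408. Of the 10945 genes tested, 84.8% and 85.1% had reads in NAC 2 and NAC 3, and 97.7% to 99.5% in the other libraries. Reads assigned to the members were 14136, 7598, 2136 and 17359 in NAC 1 to NAC 4, and 19948 to 39364 in saline. A count of 3 reads, the limit that a count of 0 allows, equals 24.2 CPM (counts scaled to a common library total) in NAC 3, 6.15 in NAC 2 and 1.33 to 2.16 in the others (counting error only). Marker levels of cell types also differed between libraries. The summed level of 14 granulosa markers, among them Foxl2, Fshr and Inha, was 5136 to 11518 CPM in NAC and 11745 to 39484 in saline. Inha, the inhibin alpha gene, made up most of that sum, and the other 13 markers summed to 2549 to 4079 CPM in NAC and 4139 to 7884 in saline. Of the 14, 11 had negative log2 folds, and Nr5a2, Kctd14 and Gatm had positive ones of 0.08, 0.20 and 0.79. The sum of 12 stroma and theca markers was 217 to 2293 CPM in NAC and 123 to 1047 in saline. Smooth muscle (7 genes) summed to 8.05 to 684 and 7.21 to 336 CPM, endothelium (7 genes) to 48.3 to 203 and 24.3 to 75.8, and oocyte markers (18 genes) to 352 to 2067 and 2.22 to 2392, in NAC and in saline. These sums overlapped between the groups, but most log2 folds were positive. Positive were 11 of 11 tested stroma and theca markers, 6 of 7 of smooth muscle, 3 of 4 of endothelium and 13 of 15 of oocyte. Their medians were 1.41, 0.89, 1.91 and 1.3 in that order. Of all 10945 tested genes, 5585 were positive, with a median of 0.02. Immune markers (10 genes) summed to 0 to 137 and 0.901 to 33.3 CPM, and surface epithelium (7 genes) to 98.3 to 717 and 186 to 350, in the same order. No marker of these lists was at 0 in all 10 libraries. The part of depth and of cell mixture in the results was not tested, and fewer cells of a type and less RNA per cell cannot be told apart in such samples.

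NAC granulosa samples had lower values than saline samples for most of the response, though no single member passed the test. Of the 34 members, 33 entered the test, and Trib3 did not pass the low-count filter. At an edgeR adjusted p under 0.05, 0 of the 33 were called, where 0.0731% of all tested genes were. At an unadjusted p under 0.05, 6 members were lower in NAC (18.2%, against a background of 8.34% of all tested genes): Herpud1, Phgdh, Creld2, Derl3, Sdf2l1 and Pdia6. Edem1 was the 1 member higher (3.03%, against 7.82%). The members were chosen with earlier results of these data known, so a share above the background is a description and no independent support. The excess of lower members was gone on the log2(TPM + 1) scale, with 2 of 33 lower (6.06%, against 7.33%), and after thinning to the shallowest library, with 2 of 22 (9.09%, against 9.64%). With the stroma and theca marker score as a covariate it was 3 of 33 (9.09%, against 6.38%). DESeq2 called 1 member, Herpud1 (adjusted p = 0.0364), where it called 3.96% of all genes, and limma-voom with sample quality weights called 1, Creld2 (adjusted p = 0.0416), where it called 4.35%. Negative log2 folds were found for 27 of the 33 (81.8%, against 49.0% of all tested genes), and their median was -0.30, against 0.02. With library size alone as the scaling, 21 were negative and the median was -0.13, while the median of all tested genes moved to 0.19. The median was -0.53 without NAC 3 and -0.47 without NAC 1, and without NAC 3 the unadjusted count was 11, all lower in NAC (against 8.14% of all genes then tested). The CPM of the groups did not overlap for 3 members, Creld2, Herpud1 and Phgdh, all lower in NAC (9.09%, against 3.43%), and for 0 higher (against 1.96%). In NAC 3 these members had 26, 4 and 13 reads, so counting error is large there. Without NAC 3 the count was also 3 (9.09%, against 4.89%). Without NAC 2, 7 were lower without overlap (21.2%, against 5.34% of all genes), without saline 1 it was 5 (15.2%, against 5.34%) and without NAC 1 it was 5 (15.2%, against 7.46%). Without NAC 4, 4 were lower (12.1%, against 5.98%) and 1 was higher (against 3.51%).

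**Figure D1:**
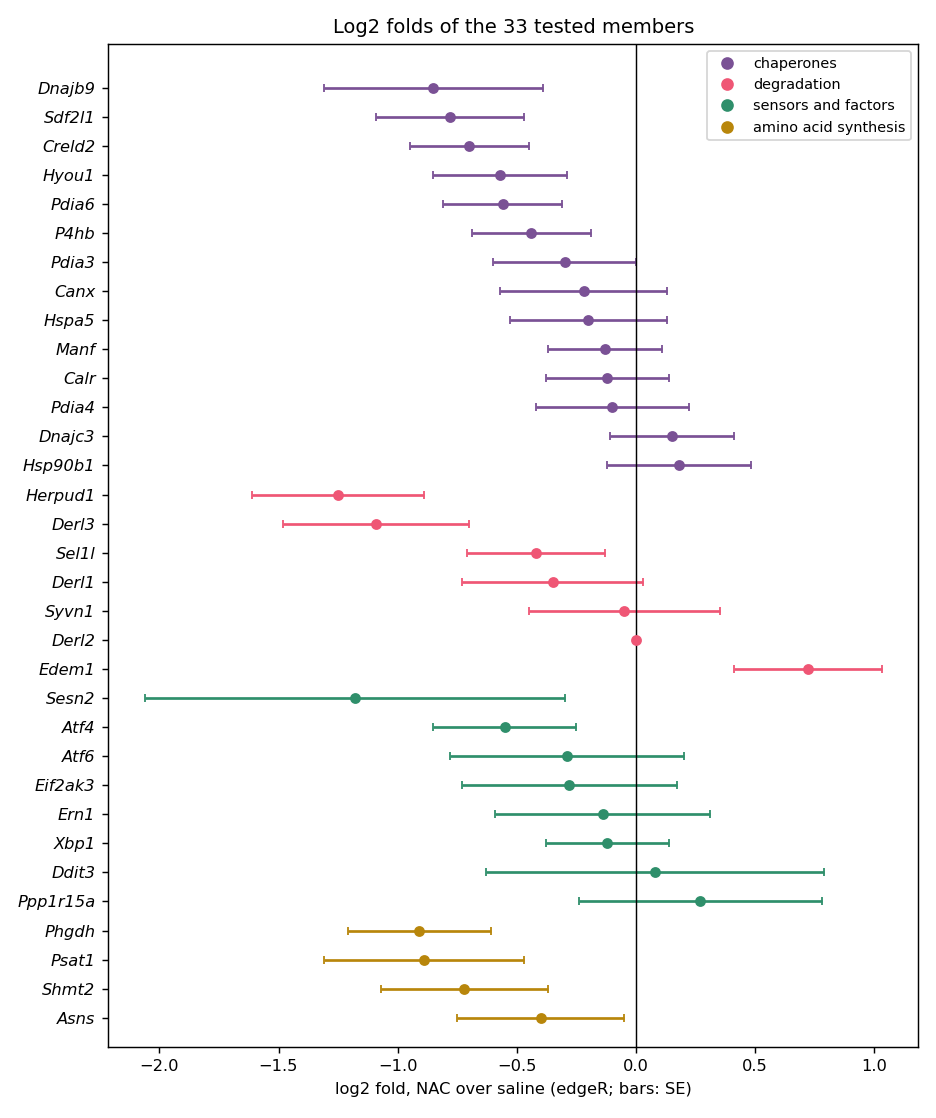
Log2 fold of each of the 33 tested members (NAC over saline, edgeR), by role; points are estimates and bars the standard error (SE), and Derl2, whose fold was 0.00, has no bar. Of the points, 27 lie left of 0, from -1.25 for Herpud1, and Edem1 lies farthest right at 0.72.

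The chaperones and folding enzymes included the 7 most abundant members by TPM in saline and differed among NAC libraries. Of 14 tested, 12 had negative log2 folds (85.7%, against 49.0% of all tested genes), with a median of -0.26. At an unadjusted p under 0.05 in edgeR, 3 were lower (21.4%, against 8.34% of all tested genes). Hspa5 (chromosome 2, 34771970 to 34777547 in the GENCODE annotation of GRCm38) encodes BiP, the main Hsp70 chaperone of the ER. It stood at 1572, 3262, 4599 and 1488 CPM in NAC 1 to NAC 4, against a lowest value of 2405, a median of 3205 and a highest of 3806 CPM in saline. NAC 1 and NAC 4 were below every saline library, NAC 3 was above all of them, and the groups overlapped. The means were 2730.4 ± 1490.0 CPM in NAC (SD over 4 libraries) and 3119.6 ± 562 in saline (SD over 6 libraries), a log2 fold of -0.20 ± 0.33 (SE, adjusted p = 0.795 by edgeR).

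Creld2 (chromosome 15, 88819646 to 88826683) encodes an ER protein induced by ER stress. It had 216, 213, 209 and 124 CPM in NAC 1 to NAC 4, against a lowest value of 283, a median of 306 and a highest of 346 CPM in saline. All 4 NAC libraries lay below every saline library, with NAC 3 at 26 reads. The log2 fold was -0.70 ± 0.25 (SE, adjusted p = 0.19 by edgeR), from 190.4 ± 44.7 CPM in NAC (SD over 4 libraries) and 306 ± 23.1 in saline (SD over 6 libraries). Pdia6 (chromosome 12, 17266545 to 17284770), a disulfide isomerase gene, had 1052, 1397, 1248 and 859 CPM in NAC, against a lowest value of 1374, a median of 1702 and a highest of 2040.4 in saline. Of its NAC libraries, 3 were below every saline library and NAC 2 was just inside their range (log2 fold -0.56 ± 0.25 SE, adjusted p = 0.278 by edgeR). Sdf2l1 (chromosome 16, 17130138 to 17132383), a component of ER chaperone complexes, had 160.2, 65.5, 88.6 and 162 CPM in NAC, against a lowest value of 154, a median of 193 and a highest of 295 in saline. NAC 2 and NAC 3, the shallow libraries, were the low ones here, and NAC 1 and NAC 4 were within the saline range (log2 fold -0.78 ± 0.31 SE, adjusted p = 0.235 by edgeR).

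Hyou1 (chromosome 9, 44379490 to 44392369) encodes a large Hsp70-like partner of BiP. It had 76.5, 79.9, 48.3 and 50.5 CPM in NAC, against a lowest value of 76.3, a median of 94.7 and a highest of 124 in saline, with NAC 3 and NAC 4 below every saline library (log2 fold -0.57 ± 0.28 SE, adjusted p = 0.333 by edgeR). The NAC 3 value was 6 reads, so its placement is uncertain. Manf (chromosome 9, 106838312 to 106891979), which encodes an ER-resident and secreted neurotrophic factor that binds BiP, had 543, 915, 797 and 601 CPM in NAC, against a lowest value of 706, a median of 793 and a highest of 832 in saline. NAC 1 and NAC 4 were below every saline library, as for Hspa5, while NAC 2 was above them. The log2 fold was -0.13 ± 0.24 (SE, adjusted p = 0.819 by edgeR).

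The other 8 chaperones had adjusted p-values of 0.372 to 0.906 by edgeR. Hsp90b1, which encodes GRP94, an Hsp90 of the ER, averaged 2258 ± 1098 CPM in NAC and 1988 ± 168 in saline (SD over 4 and 6 libraries). Its NAC libraries ranged from 1206 in NAC 4 to 3577 in NAC 2, wider than the 1724 to 2245 of saline. Its log2 fold was 0.18, and -0.59 without NAC 2 and NAC 3. Canx, which encodes the lectin chaperone calnexin, had 127, 321, 524 and 175 CPM in NAC 1 to NAC 4, against 248 to 404 in saline (log2 fold -0.22). Calr, calreticulin, had a log2 fold of -0.12, and of 0.05 with library size alone as the scaling. The disulfide isomerase genes Pdia3, Pdia4 and P4hb had log2 folds of -0.30, -0.10 and -0.44. Dnajb9 and Dnajc3, which encode J-domain co-chaperones of BiP, had log2 folds of -0.85 and 0.15. The value of Dnajb9, the least abundant chaperone by CPM, rested on 73 NAC reads and 395 saline reads.

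**Figure D2:**
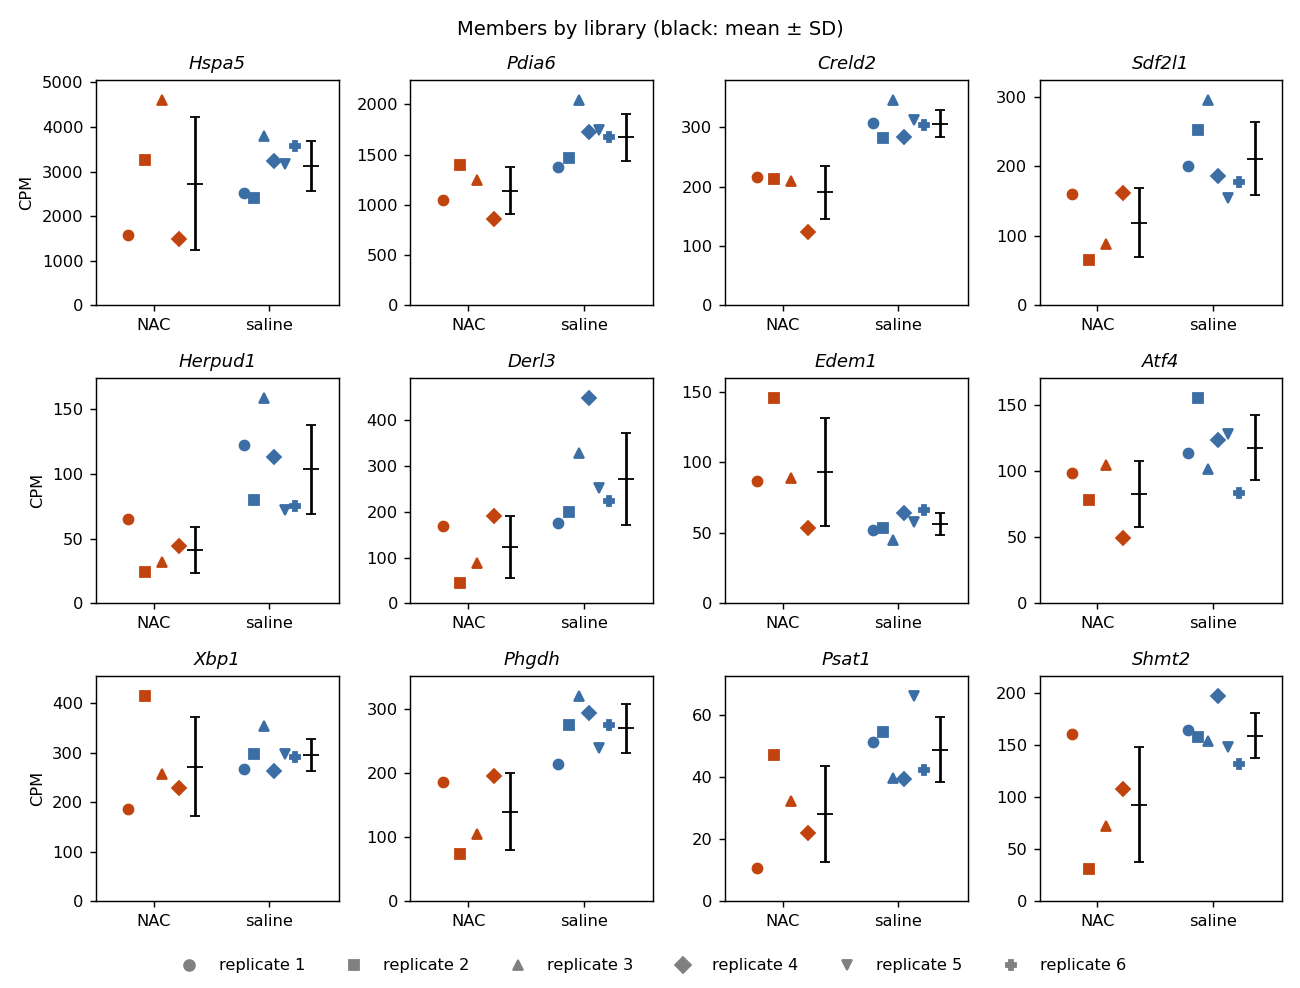
CPM (y axis, from 0) of 12 members in each NAC and saline library; symbols mark the replicate number, which does not pair libraries, and black marks give mean ± SD (n = 4 and 6). Creld2, Herpud1 and Phgdh show no overlap between the groups, and Hspa5 shows NAC 1 and NAC 4 below and NAC 3 above the saline libraries.

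The 7 genes of ER degradation draw misfolded proteins out of the ER for the proteasome. Of these, 5 had negative log2 folds (71.4%, against 49.0% of all tested genes), and the median was -0.35. At an unadjusted p under 0.05 in edgeR, 2 were lower (28.6%, against 8.34%) and 1 was higher (14.3%, against 7.82%). Herpud1 (chromosome 8, 94386438 to 94395377) encodes a membrane protein that organises the HRD1 ubiquitin ligase complex. It had 64.9, 24.6, 32.2 and 44.0 CPM in NAC 1 to NAC 4, against a lowest value of 72.3, a median of 96.7 and a highest of 159 CPM in saline. Its NAC 2 and NAC 3 values rested on 12 and 4 reads, so the placement of NAC 3 is uncertain. Every NAC library was below every saline library, and the means were 41.4 ± 17.6 CPM in NAC (SD over 4 libraries) and 104 ± 34.1 in saline (SD over 6 libraries). Its log2 fold of -1.25 was the lowest of the members (SE 0.36), with an adjusted p of 0.116 by edgeR and of 0.0364 to 0.593 over the alternatives.

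Derl3 (chromosome 10, 75893413 to 75895941) encodes a derlin, a membrane protein of the export channel. It had 169, 45.0, 88.6 and 191 CPM in NAC, against a lowest value of 176, a median of 239 and a highest of 448 in saline. NAC 1 to NAC 3 were below every saline library and NAC 4 was within their range (log2 fold -1.09 ± 0.39 SE, adjusted p = 0.191 by edgeR). Edem1 (chromosome 6, 108828641 to 108859356), which encodes a lectin that selects mannose-trimmed glycoproteins, had 86.6, 145, 88.6 and 53.2 CPM in NAC, against a lowest value of 45.1, a median of 55.6 and a highest of 66.2 in saline. NAC 1 to NAC 3 were above every saline library, and the log2 fold was 0.72 ± 0.31 (SE, adjusted p = 0.268 by edgeR), or 0.37 without NAC 2. On the deposited TPM the order of its means turned, to 17.4 ± 5.22 in NAC (SD over 4 libraries) and 21.4 ± 13.5 in saline (SD over 6 libraries), and the fold on the log2(TPM + 1) scale was -0.13. Sel1l (chromosome 12, 91806043 to 91849157), the partner of HRD1, had 201, 92.1, 121 and 91.3 CPM in NAC, against a lowest value of 134, a median of 159 and a highest of 235 in saline, with NAC 1 alone inside the saline range (log2 fold -0.42, edgeR adjusted p = 0.493).

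Of the remaining degradation genes, Syvn1, which encodes HRD1 itself, had 95.9, 20.5, 24.2 and 62.3 CPM in NAC and 43.1 to 76.8 in saline (log2 fold -0.05). NAC 1 was above every saline library and the shallow NAC 2 and NAC 3, with 10 and 3 reads, below them. The fold was 0.44 without NAC 2 and NAC 3. Derl1 and Derl2, further derlins, had log2 folds of -0.35 and 0.00, and each was highest in NAC 2, at 252 and 141 CPM, above the saline maxima of 218 and 110.0. Without NAC 2 and NAC 3 their log2 folds were -0.97 and -0.66.

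The sensors and factors showed the smallest differences of the 4 roles by median, -0.21 over 8 tested. Negative log2 folds were found for 6 (75.0%, against 49.0% of all tested genes). In edgeR 0 passed even an unadjusted p under 0.05, against backgrounds of 8.34% lower and 7.82% higher. Ern1, Eif2ak3 and Atf6 encode the sensors IRE1 alpha, PERK and ATF6. Eif2ak3 (chromosome 6, 70844515 to 70905245) had 21.6, 14.3, 8.05 and 20.9 CPM in NAC 1 to NAC 4, against a lowest value of 16.1, a median of 21.3 and a highest of 27.9 in saline. Its value in NAC 3 was 1 read (log2 fold -0.28 ± 0.45 SE, adjusted p = 0.816 by edgeR). Atf6 (chromosome 1, 170704674 to 170867771) had 31.7, 6.14, 24.2 and 34.4 CPM in NAC, against a lowest value of 16.0, a median of 27.2 and a highest of 47.8 in saline, and 3 reads each in NAC 2 and NAC 3 (log2 fold -0.29 ± 0.49 SE, adjusted p = 0.795 by edgeR). Ern1 averaged 48.6 ± 25.0 CPM in NAC and 51.4 ± 25.6 in saline (SD over 4 and 6 libraries), with a log2 fold of -0.14.

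Xbp1 (chromosome 11, 5520659 to 5525893), the target of IRE1 splicing, had 185, 414, 258 and 228 CPM in NAC, against a lowest value of 263, a median of 294 and a highest of 353 in saline. NAC 2 was the highest library of all and the other NAC libraries were the lowest (log2 fold -0.12 ± 0.26 SE, adjusted p = 0.843 by edgeR). These are values of the gene and do not separate spliced from unspliced mRNA. Atf4 (chromosome 15, 80255184 to 80257541) had 98.8, 77.8, 105 and 49.4 CPM in NAC, against a lowest value of 83.6, a median of 119 and a highest of 155 in saline. Its groups overlapped, with NAC 2 and NAC 4 below every saline library, and the means were 82.7 ± 25.0 CPM in NAC (SD over 4 libraries) and 118 ± 24.3 in saline (SD over 6 libraries; log2 fold -0.55 ± 0.30 SE, adjusted p = 0.368 by edgeR). ATF4 is regulated mostly by translation, which mRNA levels do not show.

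Genes downstream of ATF4 in this group were scarce. Sesn2 (chromosome 4, 132492032 to 132510501), which encodes sestrin 2, a stress protein that restrains mTORC1, had 13, 0, 8.05 and 9.13 CPM in NAC, against a lowest value of 1.38, a median of 16.4 and a highest of 41.5 in saline (log2 fold -1.18 ± 0.88 SE, adjusted p = 0.521 by edgeR). Ddit3 encodes the transcription factor CHOP, and the annotation holds 2 overlapping genes of this symbol, so its value is uncertain. It had 17.3, 0, 16.1 and 12.9 CPM in NAC and 8.30 to 13.2 in saline (log2 fold 0.08). Ppp1r15a, which encodes GADD34, the phosphatase subunit that restores translation, had 52.7, 14.3, 0 and 49.4 CPM in NAC and 17.8 to 37.9 in saline (log2 fold 0.27, and 0.84 without NAC 2 and NAC 3). Its value was above every saline library in NAC 1 and NAC 4 and below them in the shallow NAC 2 and NAC 3. These low values were 7 and 0 reads. A count of 0 in NAC 3 allows up to 24.2 CPM, inside the saline range, so the low placement is not resolved. Trib3, a pseudokinase gene induced by ATF4 and CHOP, had 0, 2, 0 and 0 reads in NAC 1 to NAC 4, 2 together. Saline 1 to saline 6 had 0, 0, 14, 4, 9 and 16 reads, 43 together, so the groups overlapped. The ratio of the pooled reads, scaled by library size as for the CPM, was 0.145 (95% exact binomial interval 0.017 to 0.557). That interval holds counting error only and leaves out the spread between libraries.

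All 4 genes of amino acid synthesis had negative log2 folds, as did 49.0% of all tested genes, and their median was -0.81. Phgdh (chromosome 3, 98313170 to 98339990) encodes the entry enzyme of serine synthesis. It had 186, 73.7, 105 and 195 CPM in NAC 1 to NAC 4, against a lowest value of 215, a median of 275 and a highest of 320.0 CPM in saline. No NAC library reached the saline range, and the means were 139.9 ± 60.0 CPM in NAC (SD over 4 libraries) and 269.8 ± 37.7 in saline (SD over 6 libraries; log2 fold -0.91 ± 0.30 SE, adjusted p = 0.162 by edgeR). Psat1 (chromosome 19, 15904678 to 15947337), the next enzyme of that route, had 10.8, 47.1, 32.2 and 22 CPM in NAC, against a lowest value of 39.5, a median of 46.7 and a highest of 66.1 in saline. NAC 2 alone lay inside the saline range (log2 fold -0.89 ± 0.42 SE, adjusted p = 0.311 by edgeR). The NAC 3 value was 4 reads, so its placement is uncertain.

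Shmt2 (chromosome 10, 127517123 to 127522444), the mitochondrial enzyme that turns serine into glycine and a one-carbon unit, had 161, 30.7, 72.5 and 108 CPM in NAC, against a lowest value of 132, a median of 156 and a highest of 197 in saline. Its NAC libraries other than NAC 1 were below every saline library, with NAC 3 at 9 reads (log2 fold -0.72 ± 0.35 SE, adjusted p = 0.321 by edgeR). Asns (chromosome 6, 7675169 to 7693254), asparagine synthetase, had 72.1, 30.7, 88.6 and 91.8 CPM in NAC, against a lowest value of 54.3, a median of 93.3 and a highest of 127 in saline. NAC 2 was the 1 library outside the saline range (log2 fold -0.40 ± 0.35 SE, adjusted p = 0.589 by edgeR).

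The roles differed in how the NAC libraries were placed. For each library, the median over a role's tested genes of the difference from the saline mean on the log2 CPM scale was taken, a description with no test, in which the saline values are set around 0 by construction. Chaperones had medians of -0.53, -0.17, 0.14 and -0.78 in NAC 1 to NAC 4, and -0.21 to 0.20 in saline. NAC 1 and NAC 4, the deeper NAC libraries, lay below the saline range, and the shallow NAC 2 and NAC 3 lay inside it. Degradation genes had medians of -0.60, -0.85, -0.70 and -0.43 in NAC, and -0.18 to 0.30 in saline. Amino acid synthesis genes had -0.41, -1.67, -0.83 and -0.50 in NAC, and -0.13 to 0.11 in saline. In both of these roles all 4 NAC libraries lay below every saline library. Sensors and factors had 0.05, -0.87, -0.21 and 0.12 in NAC, and -0.13 to 0.33 in saline, with NAC 2 and NAC 3 below the saline range. Over all tested genes the medians were 0.08, -0.27, -0.19 and 0.03 in NAC, and -0.01 to 0.04 in saline.

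**Figure D3:**
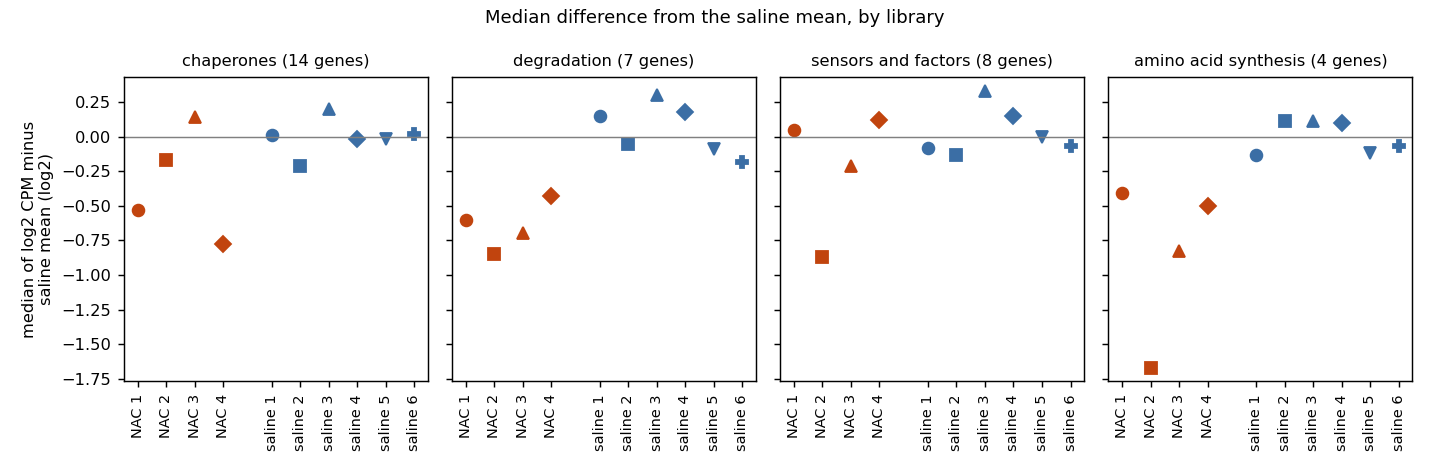
For each library (x axis) the median, over the tested genes of a role, of the difference in log2 CPM from the saline mean (y axis). Degradation and amino acid synthesis genes lie lower in all 4 NAC libraries than in any saline library, while chaperones do so in NAC 1 and NAC 4.

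In summed CPM, the 14 chaperones stood at 8593, 14100, 15860 and 7816 in NAC 1 to NAC 4, and at 11209 to 15398 in saline. NAC 1 and NAC 4 were below every saline library and NAC 3 was above them. The 7 degradation genes summed to 725, 721, 556 and 618 CPM in NAC, and to 808 to 1078 in saline. Amino acid synthesis genes summed to 430.0, 182, 298 and 417 CPM in NAC, and to 499 to 633 in saline, so in both roles all 4 NAC sums were below every saline sum. Sensors and factors summed to 450.2, 551, 491 and 472 CPM in NAC, and to 489.9 to 627 in saline, and here NAC 1 and NAC 4 were the libraries below the saline range. The 33 tested members together summed to 10198, 15554, 17205 and 9323 CPM in NAC, and to 13246 to 17736 in saline. All tested genes summed to 910960, 1028300, 920430 and 874380 CPM in NAC, and to 913600 to 1129900 in saline. In both of these sums NAC 1 and NAC 4 lay below the saline range, and NAC 2 and NAC 3 inside it.

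With NAC 2 and NAC 3 left out, which sets 2 NAC libraries against 6 saline libraries, more members were lower. The NAC libraries kept, NAC 1 and NAC 4, were the only ones with reads of the surface epithelium genes Krt19, Upk3b and Msln. The part of this in the result was not tested. The same 33 genes had 28 negative log2 folds (84.8%, against 49.4% of all genes then tested) and a median of -0.59, against 0.01. At an unadjusted p under 0.05, 17 were lower in NAC (51.5%, against 9.65% of the 12216 genes then tested) and 1 was higher, Ppp1r15a (3.03%, against 6.93%). All 14 chaperones were negative, with a median of -0.74, and 10 of them were lower at this mark (71.4%, against 9.65%). Degradation genes had a median of -0.63 with 3 lower (42.9%), and sensors and factors of -0.07 with 2 lower (25.0%). Amino acid synthesis genes had a median of -0.41 with 2 lower (50.0%), against the same background of 9.65%. The CPM did not overlap for 13 lower members (39.4%, against 9.43% of the 10945 genes) and 1 higher (against 9.16%). No member passed the adjustment over all genes. The log2 folds of Canx, Hspa5 and Psat1 were -1.12, -1.07 and -1.58, with edgeR adjusted p-values of 0.0751, 0.086 and 0.0946. Those of Creld2, Herpud1 and Phgdh, the members without overlap over all libraries, were -0.90, -0.97 and -0.54 (edgeR adjusted p = 0.101, 0.183 and 0.247). With the stroma and theca marker score as a covariate over all 10 libraries, the median of the members was -0.25, against -0.04 for all tested genes.

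**Figure D4:**
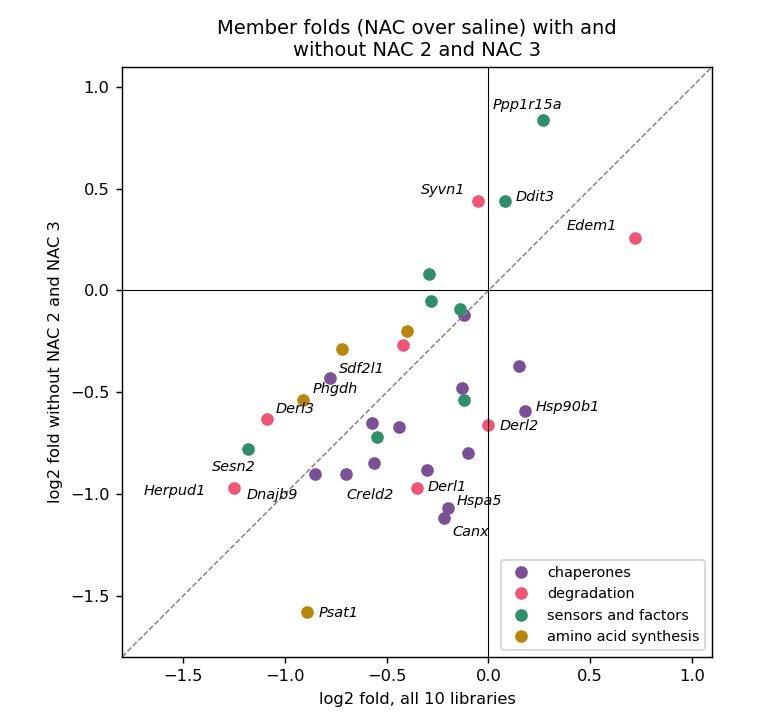
Log2 fold (NAC over saline, edgeR) of the 33 tested members with all 10 libraries (x axis) and without NAC 2 and NAC 3 (y axis), coloured by role; the dashed line marks equal values. Hspa5, Canx and Hsp90b1 lie well below the line, and Herpud1, Derl3 and Sdf2l1 above it.

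Levels were compared between genes on the deposited TPM, which are per length. Hspa5 was the most abundant member in saline, at 1173 ± 538 TPM in NAC (SD over 4 libraries) and 1384 ± 203 in saline (SD over 6 libraries). Manf followed at 1175 ± 169 TPM in NAC and 1191 ± 227 in saline, and Pdia6 at 610.2 ± 55.8 and 854 ± 74.3. Pdia3 stood at 600.3 ± 165 TPM in NAC and 828 ± 336 in saline, Hsp90b1 at 861 ± 319 and 768 ± 92.0, and Calr at 653 ± 239 and 613 ± 158. In saline, Hspa5 and Manf differed by less than the SD of either, as did Pdia6 and Pdia3, and Pdia3 and Hsp90b1. The order within these pairs is not resolved. The rank of Manf depends on length: the tables list it with 248 to 270 bases, while its longest annotated transcript has 2247. On reads per kb of the longest transcript Manf ranked 7 in saline in place of 2, and Calr took its place among the top 5, of which 4 were shared. Xbp1, at 152 ± 33.5 TPM in NAC and 161 ± 22.8 in saline (SD over 4 and 6 libraries), was the most abundant of the sensors and factors. The sensors were near the low end, with Atf6 at 3.72 ± 2.25 TPM in NAC and 4.27 ± 1.45 in saline, and Eif2ak3 at 6.27 ± 5.68 and 5.95 ± 1.26.

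**Figure D5:**
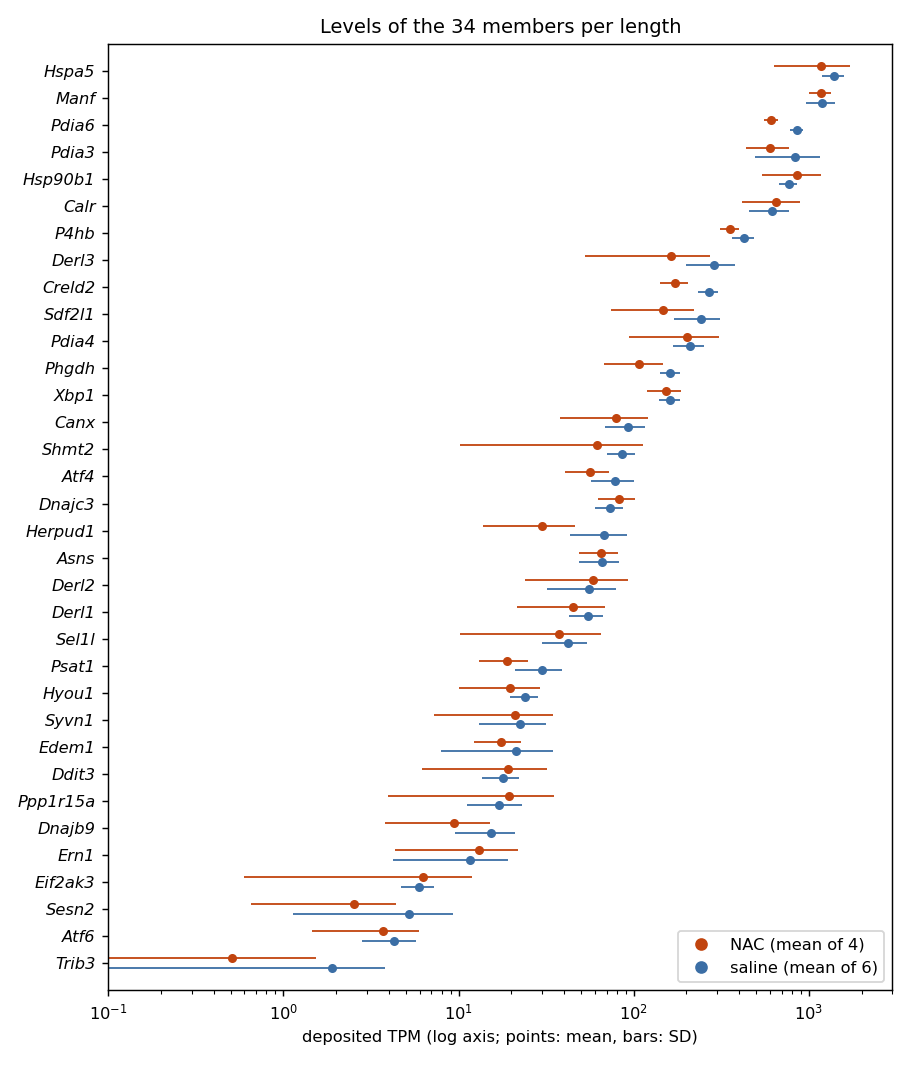
Deposited TPM of the 34 members (log x axis; points are means of 4 NAC and 6 saline libraries, bars are SD, and bars that reach the left edge run to or near 0), ordered by the saline mean. Levels in saline run from 1.90 for Trib3 to 1384 for Hspa5.

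Other genes of the pathway were read from 5 lists, in which 0 genes were called by edgeR over all genes tested (background 0.0731%). At an unadjusted p under 0.05 the background was 8.34% lower and 7.82% higher. Of all tested genes 49.0% had negative log2 folds, and their median was 0.02. Of 22 tested genes of other ER folding factors, 14 were negative, the median log2 fold was -0.38, and 4 were lower (18.2%) and 0 higher at that mark. Pdia5, a disulfide isomerase, averaged 24.3 ± 10.9 CPM in NAC and 74.8 ± 30.7 in saline (SD over 4 and 6 libraries; log2 fold -1.65, edgeR adjusted p = 0.111). Erp29, an ER folding factor, had 186 ± 16.7 and 306 ± 47.4 CPM (log2 fold -0.71). Prkcsh, the beta subunit of glucosidase II, had 83.0 ± 52.7 and 184 ± 37.6 CPM (log2 fold -1.13, and -0.76 without NAC 2). The 20 other ER degradation genes had a median of -0.12, with 2 of 20 lower, a share near the background, Selenos and Nploc4 (log2 folds -0.85 and -0.67), and 0 higher. Edem3, a relative of Edem1, had the next p and a positive log2 fold of 0.75.

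The 36 listed other ATF4-responsive genes, many of which serve amino acid uptake, tRNA charging or one-carbon metabolism, beside others such as Ddit4 and Gdf15, had mostly negative values. Of 30 tested, 24 were negative, the median was -0.46, and 6 were lower (20.0%) and 0 higher. Their summed level was 2013 to 2252 CPM in NAC, below the 2754 to 3294 of saline. The sums of the other lists overlapped between the groups. In NAC and in saline, other ER folding factors summed to 2277 to 3053 and 2998 to 3576 CPM. Other ER degradation genes summed to 1730 to 2193 and 1975.5 to 2611. Stress kinases and regulators summed to 1117 to 1450 and 1300 to 1873, and ER translocation genes to 4424 to 8508 and 5183.5 to 8018. Yars, tyrosyl-tRNA synthetase, averaged 60.7 ± 8.86 CPM in NAC and 121 ± 27.6 in saline (SD over 4 and 6 libraries; log2 fold -1.02, edgeR adjusted p = 0.113). Mthfd2, a mitochondrial folate enzyme, averaged 35.0 ± 6.36 CPM after NAC and 76.4 ± 17.8 after saline (log2 fold -1.12, edgeR adjusted p = 0.119). Gars, glycyl-tRNA synthetase, had a log2 fold of -0.77 (edgeR adjusted p = 0.19).

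Among 17 tested stress kinases and regulators the median was -0.28, with 4 lower (23.5%) and 2 higher (11.8%). Creb3l2 and Atf6b, which encode membrane-bound transcription factors, had log2 folds of -0.85 and -1.09, and Nupr1, a stress-induced chromatin protein gene, averaged 184 ± 113 CPM after NAC and 88.5 ± 30.1 after saline (log2 fold 1.03, edgeR adjusted p = 0.208). Without NAC 2 the log2 fold of Nupr1 was 0.47 and that of Atf6b was -0.79. Without NAC 1 that of Atf6b was -1.70. The 24 tested genes of ER translocation had 10 negative log2 folds, a median of 0.09, and 4 lower (16.7%) and 3 higher (12.5%), and without NAC 2 and NAC 3 they had 10 lower and 0 higher (against 9.65% and 6.93%). Ddost, a subunit of the oligosaccharyl transferase, averaged 435 ± 97.0 CPM after NAC and 912 ± 228 after saline (log2 fold -1.07, edgeR adjusted p = 0.0975), while Srp14 and Sec11c, of the signal recognition particle and the signal peptidase, had log2 folds of 1.09 and 1.27, and of 0.45 and 0.29 without NAC 2. Without NAC 2 and NAC 3 the 5 lists together had 34 of 116 tested genes lower at an unadjusted p under 0.05 (29.3%, against 9.65% of all genes) and 2 higher (1.72%, against 6.93%). With all libraries they had 20 of 113 lower (17.7%, against 8.34%) and 5 higher (4.42%, against 7.82%). The lists, like the members, were chosen with earlier results of these data known, so these shares are a description.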

How the data were processed

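Per the submitters' processing notes, the authors used Salmon, in a version not given in the sources used here, and GRCm38. The deposited tables, 1 for each library, hold estimated counts, TPM and transcript lengths, per the file headers. The 1548 rows that carry no gene symbol took 0.496% to 0.638% of a library's reads and were left out. Reads shared between similar sequences were divided by Salmon. After rounding to whole numbers, the counts were tested by edgeR 4.0.16 in R 4.3.3 (quasi-likelihood test, robust estimation, TMM factors, default low-count filter), which kept 10945 genes, with Benjamini-Hochberg adjustment over them and a threshold of 0.05. The SE is the log2 fold's size divided by the square root of the F statistic. CPM use TMM library sizes. Alternatives, among them DESeq2 1.42.0 and limma 3.58.1, are in the closing section.

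The members, role groups, pathway lists and marker lists were chosen with earlier results of these data known. By the naming rule, values by library were given for the 4 members of each role with the smallest p and the 2 with the highest saline TPM, and up to 3 genes of each pathway list were named. Members shown by library beyond this rule were chosen after their values were seen. Replicates of a group differed beyond sampling noise. Promoter sequences are from RefSeq. Depth, from 116461 to 2488408 reads, sets the precision, and reads amplified without molecular identifiers cannot be taken as independent molecules.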

Additional observations from a re-analysis of the deposited data

Results flagged for a closer look

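Of 66 groups of member CPM values examined, 1 held a sample far from the others. Chance gives about 1 in every 20 groups, so this is fewer than chance gives. Creld2 had 124 CPM in NAC 4, against 209 to 216 in the other NAC libraries. NAC 4 was the deepest NAC library, and all 4 values were below every saline library.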

How the results depend on the processing

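Over 25 alternatives, 738 of 814 member log2 folds kept their sign, and 17 of 33 members kept it throughout, among them Herpud1, Creld2, Derl3, Phgdh, Sdf2l1 and Pdia6. Where a value moved, the cause was not tested. The count of members called, 0 with edgeR, was 1 with DESeq2 and 1 with limma-voom with quality weights, which gave the shallowest library, NAC 3, the largest weight (2.23). The unadjusted count of 7 was 2 on log2(TPM + 1), 2 on log2(TPM + 0.1), 2 after thinning to the shallowest library (22 members then tested), 3 with the stroma and theca score and 18 without NAC 2 and NAC 3, and 6 to 11 with each library left out. The share of members lower was 18.2% against 8.34% of all genes, and at those settings 6.06% against 7.33%, 6.06% against 6.54%, 9.09% against 9.64%, 9.09% against 6.38% and 50.0% against 9.65%. The median of -0.30 was -0.13 with library size alone (where the median of all genes was 0.19), -0.15 after thinning, -0.61 without NAC 2 and NAC 3 (Trib3 included), and -0.53 to -0.29 with each library left out. The 3 members without overlap, all lower (9.09%, against 3.43% of all genes), became 14 without NAC 2 and NAC 3, of which 13 were lower (39.4%, against 9.43%), and 3 to 7 with each library left out, where 3.64% to 7.46% of all genes were lower without overlap. Genes called by edgeR among the 10945 were 8, against 433 with DESeq2 and 476 with limma-voom.

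Signs turned as follows. Library size alone gave Calr 0.05, Pdia4 0.07, Manf 0.03, Syvn1 0.12, Ern1 0.03 and Xbp1 0.03. Limma-voom gave Hsp90b1 -0.03, Calr 0.06, Syvn1 0.28, Derl2 -0.36 and Ern1 0.39. Log2(TPM + 1) gave Calr 0.05, Edem1 -0.13, Derl2 -0.03, Ern1 0.10, Ddit3 -0.67 and Ppp1r15a -0.61. Log2(TPM + 0.1) gave Calr 0.05, Edem1 -0.13, Derl2 -0.03 and Ern1 0.10, with a log2 fold of Ddit3 of -1.46 and a log2 fold of Ppp1r15a of -1.40. No filter gave Derl2 -0.04. Leaving out NAC 2 and NAC 3 gave Hsp90b1 -0.59, Dnajc3 -0.37, Syvn1 0.44, Derl2 -0.66 and Atf6 0.08. Thinning gave Hspa5 0.01, Calr 0.12, Pdia4 0.01 and Derl2 -0.14. The stroma and theca score gave Calr 0.06, Pdia4 0.05, Derl2 -0.02, Ern1 0.11 and Atf6 0.10. Centred offsets for GC content and length gave Hsp90b1 -0.37, Calr 0.02, P4hb 0.05, Dnajc3 -0.36, Manf 0.09, Syvn1 0.22, Derl2 -0.51, Xbp1 0.30 and Atf4 0.01. With each library left out, Hsp90b1 ranged from -0.16 to 0.29, Calr from -0.33 to 0.04, Pdia4 from -0.62 to 0.02, Dnajc3 from -0.08 to 0.23, Syvn1 from -0.57 to 0.24, Derl2 from -0.41 to 0.15, Ern1 from -0.56 to 0.07, Atf6 from -0.62 to 0.02, Ddit3 from -0.31 to 0.48 and Ppp1r15a from -0.12 to 0.53.

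Same-numbered libraries of the groups correlated at -0.008 to 0.196, so the numbers were not taken to pair them. With the replicate number as a block, 0 members were called, 5 were lower at an unadjusted p under 0.05, the median was -0.45, and Derl2, Ddit3 and Ppp1r15a had -0.05, -0.15 and -0.09. Depth limits the scarce members most: in NAC 3 a value under 24.2 CPM rests on fewer than 3 reads.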
